A study of Nothobranchius furzeri with 39 samples.

Results

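Brains of 6 male and 6 female African turquoise killifish (Nothobranchius furzeri, a short-lived teleost) were compared at 2 months of age. They are 12 of the 39 samples of the series and were chosen by the tissue, age and sex in the labels alone. Each sex held 2 fish of each of 3 genotypes: wild type (WT), atm mutant (ATM), and the atm and cgas double mutant (dKO). Atm is a kinase of the DNA damage response, and Cgas is a sensor of cytosolic DNA. The labels name no alleles, clutches or treatments, and all fish came from 1 facility. Poly(A) RNA of brains was sequenced, and 11 livers of the same fish (5 male, 6 female) and 7 brains of other fish at 3 months (3 male, 4 female; WT and a cGAS genotype) served for comparison. Levels are given as counts per 1000000 counts of the library (CPM), with library totals scaled by edgeR's TMM factors. Scaling was done separately for 2-month brain, liver and 3-month brain. Differences are given as log2 fold changes, male minus female, ± their standard error. A gene was called at a Benjamini-Hochberg adjusted p under 0.05 in edgeR's quasi-likelihood test with genotype as a covariate.

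In this killifish, males carry an X and a Y chromosome that look alike under the microscope. The sex-determining region lies on the chromosome numbered 5, where recombination between X and Y is reduced, and the stretch that is kept apart varies between strains. In fish brains, sex differences can also come through gonadal steroids, their receptors, brain aromatase, and the pituitary hormones that steer the gonads.

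In units of 1000000 counts, the totals of the 12 brains ran from 18.6 to 39.3. A total above 25 occurred in 2 of 6 male and 4 of 6 female brains, so depth moved partly with sex. In WT the males were at 20.89 and 18.97 and the females at 39.28 and 33.63. Within WT, depth and sex therefore cannot be told apart. Neuronal markers were high throughout, with snap25 at 771 to 1128 CPM, and the germ cell marker ddx4 was at 2.31 CPM or less. Of the liver markers, fabp10a was at 0.271 CPM or less but apoa1a at 600 to 1090 CPM. Several libraries stood apart at some genes. WT male 1 did so at meninges and muscle markers, and others at pituitary hormone genes, as given further below. The library labelled ATM female 1 lay with the males at a set of genes described below, and the results are given with and without it. The library labelled dKO male 4 had a summed level of microglia and leukocyte markers of 1140 CPM, against 203 to 311 CPM in the female brains and a male median of 245 CPM. Nothing in the labels says more of how the fish of 1 group are related, so the p-values measure the spread between these fish.

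Across the 12 brains, edgeR called 1 gene between the sexes. This was rnf19a, which encodes an E3 ubiquitin ligase of the RBR class and lies on chromosome 5 of the RefSeq gene table (assembly NfurGRZ-RIMD1). Of 20508 genes tested, 0.00488% were called, and 1848 (9.01%) had an unadjusted p under 0.05. With depth as a covariate, 1036 of 20839 genes had an unadjusted p under 0.05, and rnf19a was again the 1 gene called. With DESeq2, 41 were called in the same brains (0.2%), as described below. In female brains rnf19a was at 21.5 CPM in ATM 1, 22.1 in ATM 2, 19.3 in WT 3, 19.4 in WT 4, 20.8 in dKO 2 and 19.3 in dKO 3. In male brains it was at 9.95 CPM in ATM 3, 12.1 in ATM 4, 9.01 in WT 1, 9.16 in WT 2, 10.9 in dKO 1 and 9.34 in dKO 4. The ranges did not overlap, and the highest male lay well below the lowest female. The mean was 10.1 ± 1.22 CPM in males and 20.4 ± 1.24 CPM in females (SD, n = 6 each), a 2.03-fold higher level in females. The log2 fold change was -1.02 with a standard error of 0.071 and an edgeR adjusted p of 8.56e-05. An exact two-sided permutation test, with sex exchanged within genotype, gave p = 0.00926, the smallest that it allows. Since rnf19a was picked by its p in these same brains, this second test adds no separate support. Genes that edgeR did not call, such as tsen54 and bhlhe41, reached the same smallest value.

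**Figure D1:**
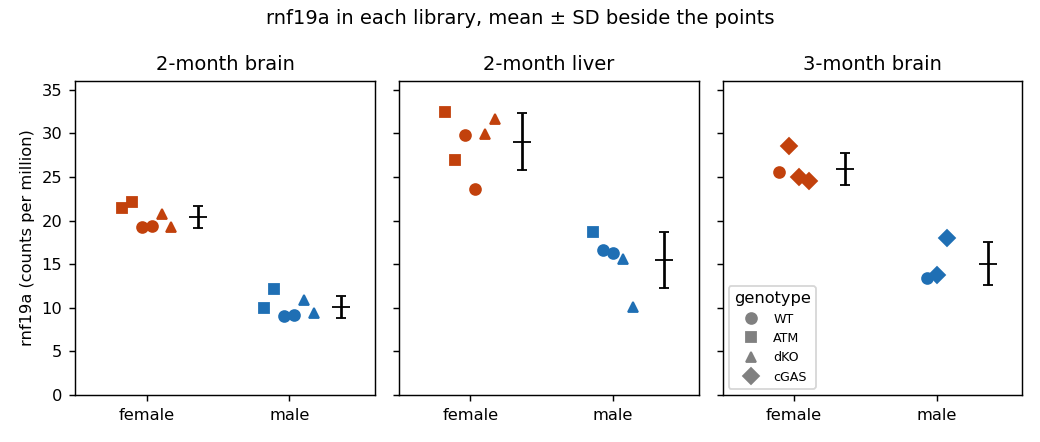
Level of rnf19a in CPM (linear axis from 0) in each library of 2-month brain, 2-month liver and 3-month brain; the colour and the axis position give the sex, the symbol shape gives the genotype, and the bar gives the mean ± SD. In each panel all males lie below all females, in 2-month brain at 9.01 to 12.1 against 19.3 to 22.1 CPM.

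The difference in rnf19a was of similar size in the 3 genotypes. The log2 fold change was -1.09 ± 0.126 in WT, -0.98 ± 0.125 in ATM and -0.99 ± 0.125 in dKO (± standard error, 2 males against 2 females each). The sex-by-genotype interaction had an unadjusted p of 0.799 and an edgeR adjusted p of 0.926. Leaving out both sexes of WT left rnf19a at -0.98 with an edgeR adjusted p of 0.051, and no gene called.

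The same direction was present in other samples. In liver, females were at 23.6 to 32.4 CPM and males at 10.03 to 18.7 CPM, with a log2 fold change of -0.90 ± 0.162 and an edgeR adjusted p of 0.0244. The sex effects of brain and liver differed by -0.16 ± 0.171 on the log2 scale, with an edgeR adjusted p of 0.614. In the 3-month brains, which are other fish in a separate count table, the 4 females were at 24.6 to 28.6 CPM and the 3 males at 13.4 to 17.9 CPM. There the log2 fold change was -0.78 ± 0.179, with an unadjusted p of 0.00414 and an edgeR adjusted p of 0.999. At that age 3.68% of genes had groups that did not overlap. In the 3-month brains 0 of 13825 genes were called by edgeR, 467 (3.38%) had an unadjusted p under 0.05, and DESeq2 called 25. With both ages in 1 fit of 14268 genes, rnf19a was again the 1 gene called (0.00701%), at -0.93 ± 0.082. That fit holds the same brains in which rnf19a was picked by its p, so the call adds no separate support.

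The genes beside rnf19a did not move with it as a block. Among the 20 tested genes on each side in the gene table, 12 of 40 had an unadjusted p under 0.05, 6 higher and 6 lower in males. Over all tested genes this share was 9.01%, with 5.54% higher and 3.47% lower. The median log2 fold change of the 40 was -0.02. Groups without overlap were seen at 2 of the 40, against 0.254% of all tested genes. One was LOC107395491, the fourth tested gene after rnf19a, at 5.80 to 7.54 CPM in males and 9.43 to 12.2 CPM in females. Its log2 fold change was -0.68 ± 0.097, and its edgeR adjusted p was 0.124. The other was pop1, which encodes a subunit of the RNA-processing enzymes RNase P and RNase MRP, at -0.37 ± 0.104. On the other side, id4, an inhibitor of helix-loop-helix factors, stood at -0.17 ± 0.059 with overlapping groups. The growth factor gene gdf6, 54 names further on in the count table and a candidate for the male-determining gene of this species, was at 0.685 ± 0.213 CPM in males and 0.526 ± 0.220 CPM in females (SD, n = 6 each). Its log2 fold change was 0.45 ± 0.337 with an unadjusted p of 0.209. By genotype it was 1.44 ± 0.528 in WT, 0.08 ± 0.521 in ATM and -0.11 ± 0.497 in dKO, with an unadjusted interaction p of 0.118. In liver gdf6 had the opposite sign, at -0.58 ± 0.212 (unadjusted p = 0.0213, edgeR adjusted p = 0.165). It has no place in the gene table. Counts of a Y copy and an X copy cannot be told apart here.

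Chromosome 5 held many of the smallest p-values. On it, 131 of 1093 tested genes (12%) had an unadjusted p under 0.05, against 6.45% to 11.3% on the 18 others. An unadjusted p under 0.001 was reached by 30 genes in all, 0.146% of those tested, of which 22 had a place in the gene table. Chromosome 5 held 11 of these 22, although it held 7.16% of the placed genes tested, and no other chromosome held more than 3. Of the 11, 2 were higher and 9 were lower in males. By the share at an unadjusted p under 0.05, chromosome 5 was not always first. Without ATM female 1 it had 12.2% and chromosome 19 had 12.5%, and without dKO male 4 the shares were 18.30% and 18.33%. The count for chromosome 5 was 82 without WT female 4 and 200 without dKO male 4. Over all tested genes the counts were 1009 and 3198 in these fits, against 1848 with all 12 brains. Without dKO male 4, 56 placed genes were under 0.001, and chromosome 5 held 23.2% of them. By DESeq2 in the 12 brains it held 28.4% of 81 such genes. The other samples did not show this concentration. In liver chromosome 5 held 5.07% of 276 placed genes under 0.001, and 7.29% of the placed genes tested. In the 3-month brains 1 placed gene was under 0.001, and it was not on chromosome 5. These counts were examined after the chromosome of the leading genes had been seen. In the 12 brains the median log2 fold change of chromosome 5 was 0.00, as for all genes, so the chromosome did not shift as a whole.

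**Figure D2:**
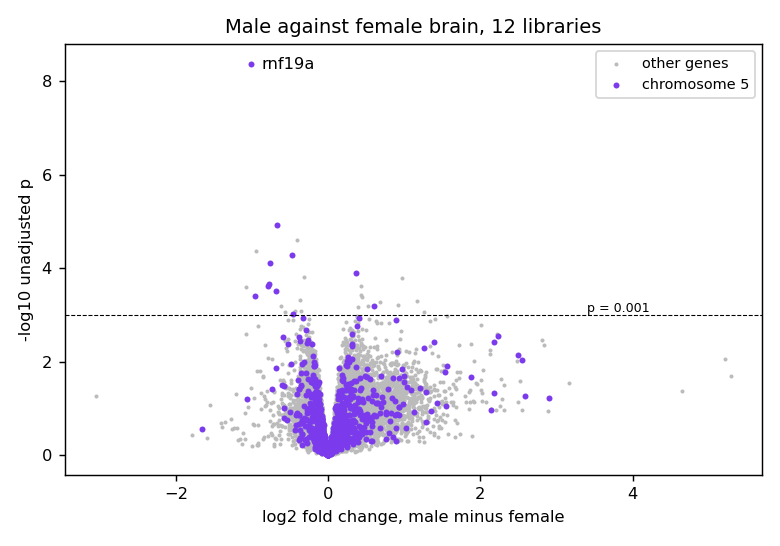
Log2 fold change, male minus female, against the -log10 of edgeR's unadjusted p for 20508 genes in 12 brains. Genes of chromosome 5 are in purple, and the dashed line lies at 0.001. The gene rnf19a lies alone at the top, and 11 of the 30 genes above the line are on chromosome 5.

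When single brains were left out, only the library labelled ATM female 1 changed the number of genes that edgeR called. Each of the 12 brains was left out in turn. Without ATM female 1, 21 of 20999 genes (0.1%) were called, 10 higher (0.0476%) and 11 lower (0.0524%) in males. Without any 1 of the other 11 brains, rnf19a was the 1 gene called. Of the 21 genes, 13 lie on chromosome 5, 3 on other chromosomes, and 5 have no place in the gene table. In 20 of the 21 the 6 males and the 5 remaining females did not overlap, which follows from the way they were found. This list was taken up because leaving out ATM female 1 raised the count, which favours genes at which that brain lies away from the other females. Its levels at these genes are therefore given as a description, with no test.

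At 16 of the 21 genes the brain of ATM female 1 lay within the range of the 6 males and outside that of the 5 other females, and at 3 more it lay beyond the males, on the far side from the females. At the remaining 2, rnf19a and LOC107395491, it lay within the range of the other females. The clearest case was LOC107395922, with 7.46 to 9.998 CPM in males, 0.964 to 1.06 CPM in the other 5 females, and 8.82 CPM in ATM female 1. Its log2 fold change without that library was 3.06 ± 0.121, with an edgeR adjusted p of 3.83e-07, against 2.23 and 0.551 with all 12 brains. Similarly, igflr1, a receptor of the tumour necrosis factor receptor type, was at 1.37 to 3.33 CPM in males, 0.0655 to 0.254 CPM in the other females, and 2.44 CPM in ATM female 1.

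Other genes of the set are known from neurons. The gene gsg1l, an auxiliary subunit of AMPA-type glutamate receptors in rodents, was at 11.9 to 17.6 CPM in males, 3.09 to 5.40 in the other females and 15.7 in ATM female 1. Lower in males were gas7a, whose mammalian counterpart acts in neurite outgrowth, and nrsn1, a neuronal vesicle membrane protein. For gas7a the males were at 77.7 to 89.1 CPM, the other females at 129 to 166, and ATM female 1 at 73.6. For nrsn1 the males were at 33.1 to 52.0 CPM, the other females at 65.0 to 77.4, and ATM female 1 at 40.0. For gsg1l and nrsn1 this library sat among the males, and for gas7a it lay below all of them.

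The remaining called genes on chromosome 5 showed the same arrangement at other levels. The lipid-transfer protein gene osbpl3b was at 10.4 to 17.4 CPM in males, 21.2 to 32.2 in the other females and 11.5 in ATM female 1. The tRNA-splicing endonuclease gene tsen54 was at 17.7 to 23.4 CPM in males, 26.9 to 33.5 in the other females and 20.7 in ATM female 1. The intraflagellar transport gene ift70, c5h16orf89 and LOC107378669 were lower in males at log2 fold changes of -0.89, -0.86 and -0.89. LOC107374401 was higher in males at 1.11. Off chromosome 5 in the gene table were LOC107395570 on 17 (-1.08), LOC107373587 on 3 (2.76) and the adaptor gene lurap1 on 8 (0.46). Without a place were LOC107373218 (-1.25), LOC107374400 (1.25), LOC107372995 (2.95), LOC107375557 (1.38) and nfkbid, a nuclear regulator of NF-kB (1.17). These values are log2 fold changes without ATM female 1.

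**Figure D3:**
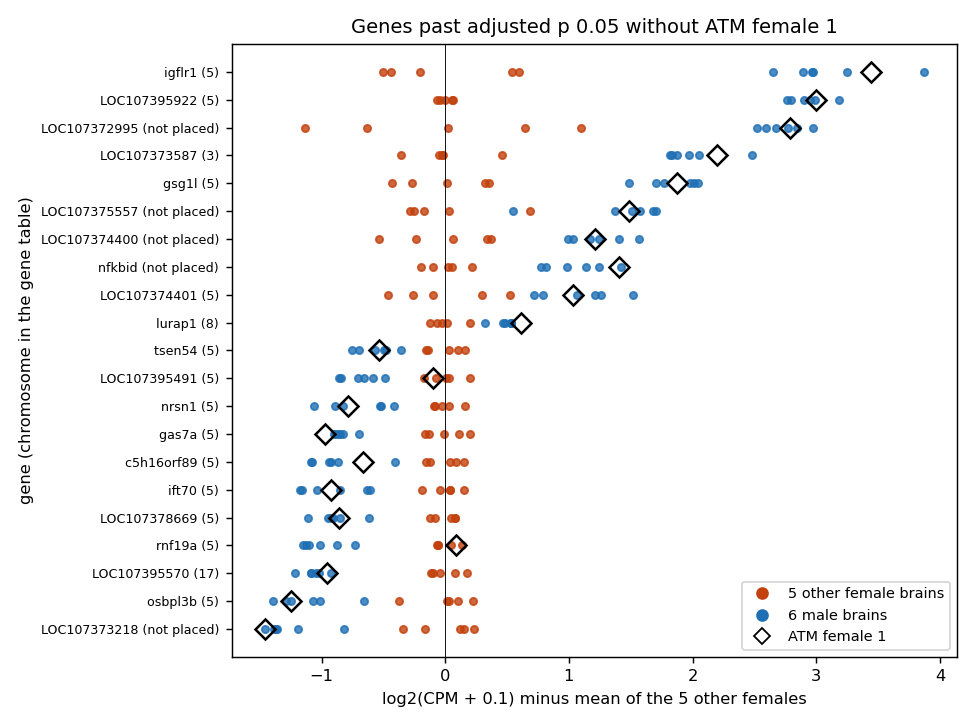
Level of the 21 genes called without ATM female 1, as log2(CPM + 0.1) minus the mean of the 5 other female brains; orange points are those 5 females, blue points the 6 males, open diamonds ATM female 1, and the chromosome is in brackets. The diamond lies among or beyond the males at 19 genes and among the females at rnf19a and LOC107395491.

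Along chromosome 5 the 13 genes were not spread evenly. LOC107395922, c5h16orf89, ift70 and gsg1l are 4 neighbouring tested genes, 211 to 208 tested genes before rnf19a, and 2 of them were higher and 2 lower in males. The gene tsen54 follows at 199 and gas7a at 186 before rnf19a. LOC107378669 lies 111, igflr1 102, nrsn1 36 and LOC107374401 9 tested genes before it. LOC107395491 lies 4 after it, and osbpl3b is the last tested gene of the chromosome, 580 after it. Between LOC107395491 and osbpl3b no gene was called.

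**Figure D4:**
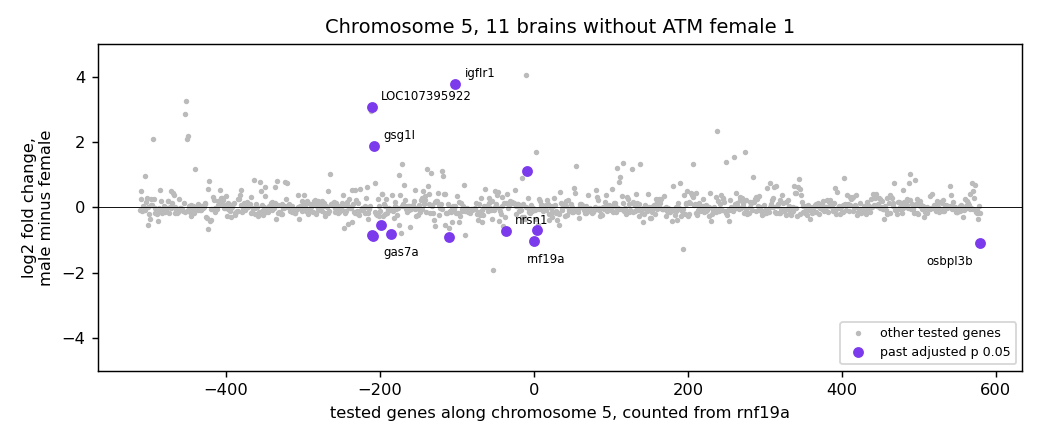
Log2 fold change, male minus female, of tested genes on chromosome 5 in 11 brains without ATM female 1, in gene order counted from rnf19a; purple points are the 13 genes past an adjusted p of 0.05. They run from 211 genes before rnf19a to 4 after it, with osbpl3b alone at 580.

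The liver of the same fish gave a second library. Of the 21 genes, 15 were tested in liver, and at 9 of these the 5 males and the 5 other females did not overlap. With all 11 livers 3.36% of genes had groups apart. The share without ATM female 1 was not counted, and leaving out a library can raise it, so these figures are not directly comparable. The liver of ATM female 1 lay within the male range at 3 of the 9 (LOC107395922, gsg1l and igflr1), nearer the males at 2 (LOC107372995 and c5h16orf89), and nearer or within the females at 4 (rnf19a, tsen54, LOC107378669 and ift70). For igflr1 the liver of ATM female 1 was at 1.74 CPM, the males at 0.979 to 2.61 and the other females at 0 to 0.129. For gsg1l it was at 20.8 CPM, the males at 18.1 to 24.5 and the other females at 7.49 to 15.6. For rnf19a it was at 32.4 CPM, the highest of all 11 livers. Its vtg3, an egg yolk precursor made in the liver of egg-laying females, was at 1603 CPM, where the males had 0.961 or less and the other females 3.79 to 65370. Its liver esr1, the oestrogen receptor gene, was at 422 CPM, where the males had 12.2 to 16.6 CPM. The label of this fish was left as it stands, and what sets it apart was not tested.

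Of the 21 genes, 6 were tested in the 3-month brains, and 5 of the 6 had the same direction there. Besides rnf19a, nfkbid had groups without overlap, at 3.08 to 5.35 CPM in males and 0.844 to 2.55 CPM in females (log2 fold change 1.59 ± 0.482, unadjusted p = 0.0149, edgeR adjusted p = 0.999). For osbpl3b the log2 fold change was -1.25 ± 0.457, with an unadjusted p of 0.0324 and overlapping groups. There nrsn1 was at -0.33 ± 0.444, LOC107378669 at -0.45 ± 0.351 and LOC107375557 at -0.07 ± 0.336. Where the main test called 1 gene in the 12 brains at 2 months, DESeq2 called 41 (0.2%), of which 13 lie on chromosome 5. They shared 16 genes with the 21, which is 39.0% of the 41 and 76.2% of the 21.

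Outside the 21 genes, DESeq2 called 25, 19 higher and 6 lower in males, with log2 fold changes of 0.194 to 4.72 in size and a median of 0.442. edgeR called none of these 25. The largest was LOC107391139, at 26.9 CPM in dKO male 1, 5.76 in WT male 2 and 0.0507 to 1.099 CPM in the other 10 brains. The genes with the smallest p among those with a symbol, a mean log2 CPM of at least 1 and groups without overlap did not pass edgeR's test, apart from rnf19a. Among those named next, tmem104 and mdk were called by DESeq2 (DESeq2 adjusted p = 0.00166 and 0.0143). Higher in all 6 males than in all 6 females were tmem104, a membrane protein gene of chromosome 5 (27.3 ± 1.202 against 21.2 ± 1.90 CPM, SD, n = 6 each; log2 fold change 0.37; edgeR adjusted p = 0.368), and rab11fip5a, an effector of the recycling-endosome GTPase Rab11 (0.24). So were hps6 of the organelle-sorting complex BLOC-2 (0.19), the matrix genes thbs2 (0.36) and fn1 (0.77), smtnl (0.51), the transcriptional coactivator gene mrtfab (0.17) and sertad2 (0.14). For fn1 the male mean of 65.2 ± 46.3 CPM rested on dKO male 4 at 159 CPM. Lower in all males were the glycosyltransferase gene glt8d1 (-0.36), mdk for the growth factor midkine (-0.25), fam163a (-0.46), csgr15h20orf24 (-0.26), taf11 of the general transcription factor TFIID (-0.23) and decr2, a peroxisomal reductase of fatty acid breakdown (-0.41). In all, 18 genes lay higher and 34 lower in all males (0.0878% and 0.166% of those tested). How many genes would do so by chance was not tested. The genes named here were picked for lying apart, so their lack of overlap is no separate result.

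Within single genotypes the comparison had 2 fish of each sex. In WT 3 of 20839 genes (0.0144%) were called: rnf19a, neb and lamc3. The muscle protein gene neb was at 30.8 and 34.7 CPM in the WT males, 11.7 and 14.99 in the WT females, and 12.5 to 15.7 in the other 8 brains. Another muscle gene, ttn.2, was also high in the WT males, at 57.8 and 49.4 CPM, against 5.45 to 13.8 CPM in all other brains. The laminin gene lamc3 was at 6.70 and 5.76 CPM in the WT males, 2.43 and 2.02 in the WT females, and 5.09 to 7.41 in the other 8. So neb stood out in the males and lamc3 in the females of WT. In ATM and in dKO 0 genes were called, with 718 (3.45%) and 2054 (9.86%) at an unadjusted p under 0.05 against 3677 (17.6%) in WT. In WT, depth could not be told apart from sex. The ATM females include ATM female 1, which lay among or beyond the males at most of the genes called without it. These shares are therefore no measure of how sex differences vary with genotype. The interaction of sex and genotype called 0 genes, with 2028 at an unadjusted p under 0.05 (9.73%). Neither neb nor lamc3 therefore passed a test of a difference between genotypes.

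Steroid and hormone genes, the usual places to look for a sex difference in brain, were not called. Brain aromatase, cyp19a1b, which turns androgen into oestrogen in radial glia, was at 35.1 to 73.2 CPM in males and 9.40 to 115 CPM in females, with the male range inside the female range. Its log2 fold change was -1.42 ± 0.533 in WT, 0.37 ± 0.529 in ATM and 1.602 ± 0.544 in dKO, with an unadjusted interaction p of 0.0145 and an edgeR adjusted p of 0.492. The oestrogen receptor genes esr1 (18.7 ± 2.01 and 16.9 ± 5.03 CPM), esr2a (7.24 ± 0.526 and 6.66 ± 0.576 CPM) and esr2 (2.76 ± 0.458 and 2.65 ± 1.33 CPM) had close means in males and females (SD, n = 6 each). The androgen receptor gene ar had a log2 fold change of -0.15 ± 0.144, and the progestin receptor gene pgr one of -0.19 ± 0.341. Of 40 tested genes of steroid synthesis and reception, 18 were higher and 22 lower in males, 4 and 3 of them at an unadjusted p under 0.05 (17.5%, against 9.01% of all genes), and the list's median was -0.07 against 0.00 over all genes. The 3 with the smallest p were the glucocorticoid receptor gene nr3c1 (0.34), hsd17b3, which makes testosterone from androstenedione (0.57), and the membrane progestin receptor gene paqr7b (-0.18). The gene hsd17b3 was called in liver at 3.81, and its sex effects in brain and liver differed by -3.30 ± 0.595 (edgeR adjusted p = 0.00389).

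Pituitary hormone genes varied between libraries by far more than between the sexes. The gonadotropin alpha subunit gene cga was at 51.7 to 322 CPM in 8 brains and at 0.236 CPM or less in ATM female 1, dKO female 2, WT male 1 and dKO male 4. In the same 4 libraries prl, for prolactin, was at 0.516 to 2.49 CPM and gh1, for growth hormone, at 0.991 CPM or less. In the other 8 prl was at 145 to 487 CPM and gh1 at 128 to 722 CPM. The 4 low libraries were 2 of each sex. The follicle-stimulating hormone gene fshb had a log2 fold change of -3.05 ± 1.354, with an unadjusted p of 0.0534. It was at 0.229 to 172 CPM in females and 0.150 to 15.1 CPM in males. The luteinising hormone gene lhb was at -1.65 ± 1.424. Of 34 tested pituitary genes, 14 were higher and 20 lower in males. At an unadjusted p under 0.05 was 1 (2.94%, against 9.01% of all genes), the thyroid hormone deiodinase gene dio2 (0.50). How much pituitary tissue each brain sample kept was not tested.

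**Figure D5:**
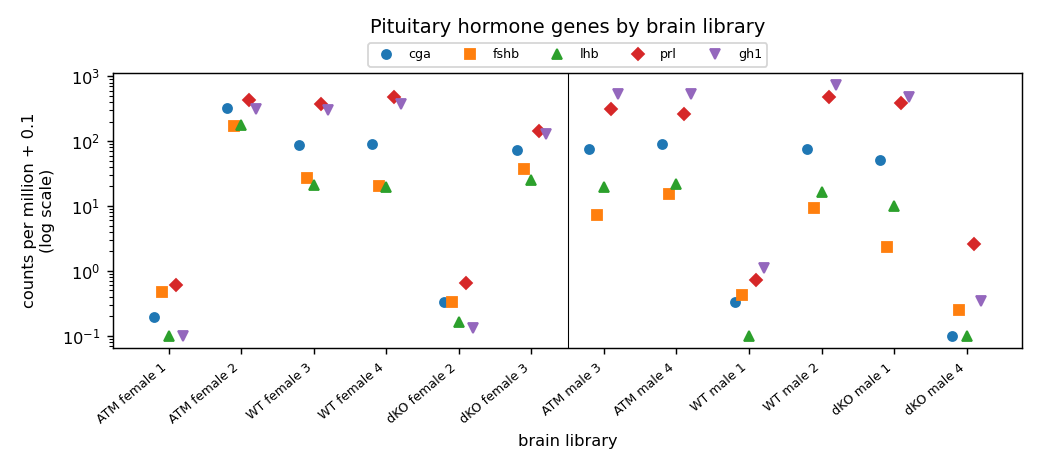
Level of 5 pituitary hormone genes in each brain library, as CPM + 0.1 on a log axis, females to the left of the line and males to the right. In 4 libraries, 2 of each sex, cga is at 0.236 CPM or less, and in the other 8 it is at 51.7 CPM or more.

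Among the neuropeptide genes, agrp, which encodes an appetite-stimulating peptide of the hypothalamus, had the smallest p. It was at 0.581 to 3.26 CPM in males and 0.304 to 1.27 CPM in females, with overlapping groups and a log2 fold change of 1.398 ± 0.337 (unadjusted p = 0.00124). In the 3-month brains it stood at 1.27, with an unadjusted p of 0.237. The gene gal, for galanin, was at 1.28 ± 0.561, and the corticotropin-releasing hormone gene crh at -0.28 ± 0.091. Pyya, of the neuropeptide Y family, was at -0.55. The gonadotropin-releasing hormone genes gnrh1 and gnrh3 were at 0.59 ± 0.508 and 0.03 ± 0.078, and the vasotocin gene avp at 0.12 ± 0.351. Of 50 tested neuropeptide genes, 25 were higher and 25 lower, 2 and 3 of them at an unadjusted p under 0.05. That share of 10% was near the 9.01% of all genes. None of these genes was called.

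In the other lists of genes by function, the share at an unadjusted p under 0.05 ran from 1.75% to 17.1%, against 9.01% of all genes. The lowest share was that of cell division and neurogenesis, and the highest that of the immediate early genes. Lists of tissue and cell type markers are given further below. Of 52 genes of monoamine and acetylcholine signalling, 2 higher and 2 lower were past it; the 3 with the smallest p were the tyrosine hydroxylase gene th (0.52) and the serotonin receptor genes htr1a (-0.21) and htr2b (0.31). Of 41 immediate early genes 2 were past it higher and 5 lower, led by ier5l (-0.23), fosaa (-0.25) and jund (-0.18). Of 37 circadian clock genes 27 were lower in males, 3 of them past it: bhlhe41 (-0.21), nr1d2b (-0.15) and asmt2 (-0.20). Of 50 stress and heat shock genes 2 were past it higher and 4 lower, among them hspb1 (-0.49) and crhbp (-0.21). Of 57 genes of cell division and neurogenesis 41 were lower and 1 past it, mcm2 (-0.27). Of 35 genes of sex determination and gonad development 1 was past it, emx2 (-0.27), and of 10 oestrogen-responsive and egg yolk genes 1, greb1l (0.45). No list member was called.

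Lists of immune genes leaned towards males together with the library dKO male 4. Of 30 tested interferon and complement genes 25 were higher in males, with a median of 0.40. At an unadjusted p under 0.05 were 2 (6.67%, below the 9.01% of all genes), the complement genes c6 (0.46) and c7b (1.11). Of 31 microglia and leukocyte markers 27 were higher in males, with a median of 0.40. Their summed level was 213 to 1140 CPM in males and 203 to 311 CPM in females, and the highest value was that of dKO male 4. For c7b this library had 11.9 CPM against a female mean of 1.81 ± 0.489 CPM (SD, n = 6). Without dKO male 4 the medians were 0.075 for the interferon and complement genes and -0.06 for the microglia and leukocyte markers. In bulk tissue, more cells of a type and more RNA per cell cannot be told apart.

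Markers of tissues next to the brain varied widely within both sexes. Retina, optic nerve and pineal markers had a median of 0.40, with 36 of 40 higher in males, and summed levels of 210 to 286 CPM in males and 75.2 to 310 CPM in females. The lowest sum was that of dKO female 3 and the highest that of dKO female 2, with medians of 236 CPM in males and 204 CPM in females. At an unadjusted p under 0.05 were 7 of the 40 (17.5%, against 9.01% of all genes), all 7 higher in males. The 3 with the smallest p, rcvrn2, guca1a and pde6c, had low levels, at 3.33 CPM or less in every brain. Muscle markers had a median of 0.68, with sums of 518 to 1639 CPM and 544 to 919 CPM, and WT male 1 was highest. Meninges, choroid plexus and ependyma markers reached 4494 CPM in that same library, where the medians were 955 CPM in males and 987 CPM in females. Neuron markers (10380 to 10850 CPM in males, 10340 to 11340 CPM in females), radial glia and astrocyte markers (median -0.06) and oligodendrocyte markers (median -0.13) had sums that overlapped between the sexes. Of these lists, 5 of 23 neuron markers (21.7%), 2 of 17 glial markers and 3 of 24 oligodendrocyte markers had an unadjusted p under 0.05, and 18 of the 24 oligodendrocyte markers were lower in males. Vessel and blood markers (0.09), liver markers (0.15), gonad and germ cell markers (-0.05) and intestine and pancreas markers (0.24) completed the lists, and all ranges of summed levels overlapped between the sexes. At an unadjusted p under 0.05 were 4 of 18 liver markers (22.2%, all higher in males) and 6 of 38 vessel and blood markers (15.8%, 5 higher). The shares were 5.26% for muscle, 11.4% for meninges, choroid plexus and ependyma, 0% for gonad and 10% for intestine markers.

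Liver, by contrast, called many genes on fewer libraries. With the same test 390 of 16977 genes (2.3%) were called between male and female livers. Of these, 347 were tested in brain, and 33 of the 347 (9.51%) had an unadjusted p under 0.05 there, near the 9.01% of all genes. In brain, the liver genes higher in males had a median log2 fold change of 0.011 and those lower in males -0.001, against 0.001 over all genes. Of the 33, 16 had the same direction in both tissues and the others the opposite direction, and 1 was called in brain, rnf19a. Those 16 include tsen54, c5h16orf89, ift70 and LOC107378669 of chromosome 5 among the lower genes, and hsd17b3, trmt11 for a tRNA methyltransferase subunit (0.34 in brain, 0.49 in liver), LOC107376458 (0.51, 1.03), the transcriptional repressor gene erf (0.21, 1.11) and c7b (1.11, 1.65) among the higher ones. The liver count depended on single libraries. It was 211 without ATM female 1, 150 without ATM female 2, 122 and 142 without WT females 3 and 4, 106 and 201 without dKO females 2 and 3, 217 without WT male 1, 729 without dKO male 1 and 837 without dKO male 4. The sex effects of the 2 tissues themselves differed at 916 of 21878 genes (4.19%). With the fish as a block, since both organs came from the same fish, 250 of 21813 genes differed (1.15%). For esr1 the difference was 5.29 ± 0.699, and 5.03 ± 0.723 with the block (edgeR adjusted p = 0.0109), with 637 CPM in female and 14.1 CPM in male livers.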

How the data were processed

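The authors deposited raw counts per gene for 2-month brains and livers in 1 table and for 3-month brains in another. Per the submitters' processing notes, Trim Galore 0.6.4, cutadapt 3.4, STAR 2.7.6a and edgeR 3.32.1 were used; the genome build is not given in the sources used here. Read strand in counting is not stated, so overlapping genes may share reads. Near-identical X and Y copies may share reads whatever the strand. From these counts, edgeR 4.0.16 (R 4.3.3) fitted TMM-scaled, filtered (filterByExpr) counts with genotype as a covariate; p-values were adjusted over all tested genes. The 2-month table holds 25099 genes and the other 16383; 1 library with 0 counts was left out. Chromosomes and gene order come from RefSeq's gene table (NfurGRZ-RIMD1), in which 17481 names matched. Genes were named by rank among those with groups apart, by list (up to 3 per list, at an unadjusted p under 0.05), or as fixed steroid and hormone genes; the 21 genes and chromosome 5 were taken up after their values were seen. Members and lists were chosen with earlier results of these data known. DESeq2 1.42.0 and limma 3.58.1 were alternatives. The fit was tested on simulated data.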

Additional observations from a re-analysis of the deposited data

Results flagged for a closer look

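In 160 groups of 6 brains of 1 sex, over the 80 genes named above, 28 had 1 library far from the other 5 by Dixon's test. Chance alone flags about 1 in 20 groups of genes not chosen for their values, a rate that does not hold here. The 21 genes, apart from rnf19a, were taken up because leaving out ATM female 1 got them called. Some of the other genes were picked for groups without overlap. ATM female 1 was that library 12 times: LOC107395570 (7.13 CPM), LOC107378669 (3.28), ift70 (2.49), LOC107373218 (14.8), gas7a (73.6), LOC107395922 (8.82), nrsn1 (40.0), gsg1l (15.7), LOC107373587 (0.845), igflr1 (2.44), nfkbid (2.67) and c7b (2.77). For all but c7b these are the genes called without it. The male brain dKO male 4 stood apart 7 times: c5h16orf89 (34.7 CPM), gas7a (89.1), LOC107375557 (3.03), fosaa (48.8), fn1 (159.0), c7b (11.9) and htr2b (7.93). Its gas7a and c5h16orf89 lay on the female side of the other males.

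The remaining 9 were spread over other libraries. They were glt8d1 in dKO male 1 (9.51 CPM), lurap1 in WT male 1 (37.9), LOC107373587 in WT male 2 (1.05), sertad2 and htr1a in dKO female 2 (24.7 and 19.4), dio2 and gnrh1 in ATM male 4 (3.08 and 0.53), ar in WT male 2 (14.9) and pgr in ATM female 2 (10.7).

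For 7 named genes the sex effect differed between brain and liver by edgeR's test of the difference, given as brain minus liver on the log2 scale: LOC107395491 (-0.66), tsen54 (0.76), c5h16orf89 (3.22), ift70 (2.33), hsd17b3 (-3.3), erf (-0.94) and esr1 (5.29). With the fish as a block, c5h16orf89, hsd17b3 and esr1 stayed past the threshold, and the adjusted p was 0.0748 for LOC107395491, 0.0854 for tsen54, 0.0535 for ift70 and 0.106 for erf. LOC107395491 was lower in male brains but not detectably different in liver, where its log2 fold change was -0.05.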

How the results depend on the processing

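Of 28 alternative fits of the 2-month brains, rnf19a was called in 27, with log2 fold changes of -1.06 to -0.93; without WT its adjusted p was 0.051. The count of genes called in brain was 41 with DESeq2, 2 with no genotype covariate, 8 without ATM, 0 without WT, and 1 to 21 leaving out 1 library. With the replicate number as a block 1 gene was called. Residuals of same-numbered samples of different genotypes correlated at 0.065 on average (-0.307 to 0.388, 12 pairs). For samples with different numbers the average was -0.023 (-0.355 to 0.306, 36 pairs). These ranges overlap, and whether the numbers pair the fish was not tested. Genes at an unadjusted p under 0.05 were counted on chromosome 5 and over all tested genes, where the main fit gave 131 and 1848. With 3-month brains added the counts were 63 and 735 of 14268, and with the depth split as a covariate 86 and 1036. With genes of the 3-month table they were 87 and 1153 of 13531, and without WT 62 and 942. Leaving out 1 library gave 82 to 200 and 1009 to 3198. Liver called 106 to 837 genes leaving out 1 library; the tissue difference called 250 with fish as a block; the 3-month brains gave 25 with DESeq2. List medians that moved by over 1 SD were steroid genes (0.036 without ATM), stress genes (0.069 with 3-month brains), cell division (0.166 without dKO), yolk genes (-0.191 with 3-month brains, -0.051 without dKO), neuron markers (-0.009 without dKO), liver markers (-0.412 with 3-month brains) and intestine markers (0.474 with 3-month brains, 0.48 without WT). Signs turned, none of them called, for ar (0.024 with 3-month brains, 0.072 without ATM), avp (-0.228 without dKO), cyp19a1b (-0.191 with 3-month brains, -0.187 with no covariate, -0.523 without dKO), esr1 (-0.289, -0.038), esr2 (-0.177 without dKO), gdf6 (-0.016 without WT), gnrh1 (-0.092 without dKO), gnrh3 (-0.08, -0.02) and prl (-0.191 without dKO). Leaving out 1 library, the ranges were -0.458 to 0.013 for pgr, -0.026 to 0.372 for esr2, -0.16 to 0.491 for cyp19a1b, -0.021 to 0.072 for gnrh3 and -0.864 to 1.121 for prl. The cause was not tested. Depth differed between libraries and limits genes near 1 CPM.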

Other observations

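In the 8 brains with cga at 50 CPM or more, the level of fshb relative to that of cga was 0.223 to 0.534 in the 4 females and 0.0429 to 0.169 in the 4 males. The groups did not overlap. In the other 4 brains both genes were too low for a ratio. These 8 libraries were picked by cga after the values were seen, and no test was made. In the 3-month brains fshb was at 0.187 to 17.8 CPM in females and 0.268 to 0.696 CPM in males, and 2 of the 4 females were at 0.422 or less.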
